A study of Mus musculus with 4 samples.

Results

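The genes described here encode splicing factors and proteins of nuclear speckles, 32 in all, taken as a named list from the 21631 protein-coding genes on chromosomes 1 to 19 and X. All 32 were found in the RefSeq gene table. They were read for peaks of chromatin recovered with Malat1, a long noncoding RNA of the nucleus. The cells were 4T1-TGL, a breast cancer line of the mouse (strain given as BALBC, genotype WT), grown in DMEM/F12. The method was ChIRP, in which biotinylated antisense oligonucleotides pull down a nuclear RNA and the DNA that comes with it is sequenced. The 4 libraries (Malat1 pull-downs with an Even and with an Odd probe pool, a LacZ pull-down, and an input titled as that of the Even pool) were 1 per group. The deposited peaks came from 1 merged treatment against 1 input, so no value below belongs to a single library and none has a replicate error. The sources used here do not say which pull-downs were merged, and DNA recovered through the RNA and DNA caught directly by the probes cannot be told apart in this list. The peaks are of DNA and hold no expression values, so the identity of the cells was not checked against marker genes.

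Nuclear speckles are bodies between the chromosomes where splicing factors are stored and modified, and Malat1 is one of the RNAs concentrated in them. SR proteins bind exons through RNA recognition motifs and recruit the splicing machinery through domains rich in arginine and serine. Kinases of the CLK and PRP4 families phosphorylate such domains, and phosphorylation by CLK kinases releases SR proteins from speckles. SON and SRRM2 are the scaffold of the speckle, and the U1, U2, U4, U5 and U6 snRNPs assemble on each intron to form the spliceosome.

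A gene was counted as holding a peak when a summit lay in its body or within 5 kb of either end (its window). Of the 32 genes, 23 (71.9%) held at least 1 summit, beside 13159 of all protein-coding genes (60.8%) and a mean of 61.3% among the 500 protein-coding genes nearest in length to each member. The 95% Wilson interval of the members' share, which treats the genes as draws and covers counting error only, was 54.6 to 84.4% and included the share of genes of like length. The 32 windows held 37 summits in all, where 32 genes of like length would hold 40.3. Members with a summit were therefore somewhat more numerous than among genes of like length, but their summits were not. No test was made of this difference.

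The members' lead over genes of like length changed with the peaks that were counted. Among peaks at or above the median fold, 16 members (50%) had a summit against 42.3%. With the peaks of 3 tags left out, the fewest that any peak of the list holds, 14 members (43.8%) had a summit against 47.7% of genes of like length. With peaks of at least 10 tags, 7 members (21.9%) had one against 20.7%, and the share among all protein-coding genes was 25.9%. Of the 37 peaks, 18 (48.6%) held 3 tags, beside 37.2% of the 77823 peaks of the list. The median member window held 5.5 tags, against 4.34 for the mean of the like-length medians, while the tags of all member windows summed to 240 against 371. At or above the 90th percentile of genes of their length were 2 of 32 members, Prpf8 and U2af1. About 10% of genes reach that percentile by definition, so this count is near the usual share.

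**Figure D1:**
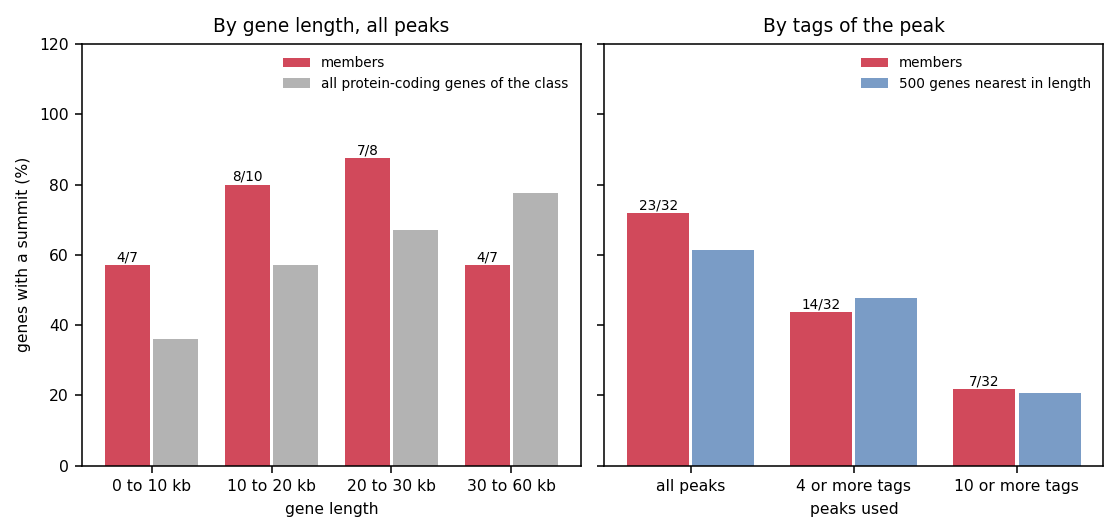
Share of genes with a summit in their window (percent, vertical axes). Left, members (red, with counts) and all protein-coding genes (grey) by gene length, not matched on length within a class. Right, members and the 500 genes nearest in length (blue) by the tags required of a peak; the members' lead of 71.9% over 61.3% is not seen at 4 or more tags (43.8% and 47.7%).

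The counts were also taken by gene length, in classes of 7 to 10 members that were not tested against each other. Of members shorter than 10 kb, 4 of 7 had a summit (57.1%), against 36.2% of all protein-coding genes shorter than 10 kb. These members were 3.78 to 7.29 kb long, so the class is not matched to them. Of the genes nearest in length to each, 36% (Srsf2) to 51.2% (Srsf7) had one. Between 10 and 20 kb 8 of 10 had one (80%, against 57.1%), and between 20 and 30 kb 7 of 8 (87.5%, against 67.1%). In the longest class, 30 to 60 kb, 4 of 7 had one (57.1%), against 77.6%. The 3 members of that class without a summit were Srrm2, Sf3b1 and Rbm25. Of the genes nearest in length to each of them, 71.4%, 76.4% and 82.2% had one.

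The SR protein kinases were the role in which every member held a peak. All 5 had a summit, and 4 of the 5 had a peak of at least 10 tags, against 20.6% of genes of like length. These 4 were the Clk genes, which encode dual-specificity kinases that phosphorylate SR proteins. Among the genes of their length 18.8% had such a peak. The family was singled out after its values were seen, and no test was made of it. Without the Clk genes, 3 of the other 28 members (10.7%) had a peak of at least 10 tags, against 21% of genes of like length. Leaving out genes picked for such peaks lowers the share in itself. Over all 32 members it was 21.9%, against 20.7%.

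Clk4 (gene ID 12750, chromosome 11, 51263114 to 51281770, plus strand, GRCm38) had its strongest peak across its own start. The peak ran from 51262920 to 51263152, held 15 tags (exact 95% Poisson interval 8.4 to 24.7, counting error only) and reached a fold of 266, the authors' enrichment over input at the summit. Its summit lay 64 bp upstream of the annotated start. The same summit is inside the body of BC049762, a protein-coding gene on the minus strand (51253645 to 51263662). A further peak of 5 tags and fold 151 lay in the Clk4 body, 13.4 kb from the start (51276475 to 51276629).

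Among the 29 members with an entry in the RefSeq promoter table (GRCm38.p6, 250 bases before to 50 bases after a start), Clk4 was the one whose promoter overlapped a peak (3.45%, against 2.21% of all genes in that table). The same peak overlapped promoters of BC049762 on the minus strand, so it cannot be assigned to Clk4 alone. Its summit is base 258 of one of these and base 205 of another, with the annotated start at base 251. The Clk4 promoter sequence is shown because the whole peak of 233 bp falls inside it. Capitals mark the peak, and the annotated start is base 251.

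Clk4 promoter, chr11:51262864-51263163, plus strand: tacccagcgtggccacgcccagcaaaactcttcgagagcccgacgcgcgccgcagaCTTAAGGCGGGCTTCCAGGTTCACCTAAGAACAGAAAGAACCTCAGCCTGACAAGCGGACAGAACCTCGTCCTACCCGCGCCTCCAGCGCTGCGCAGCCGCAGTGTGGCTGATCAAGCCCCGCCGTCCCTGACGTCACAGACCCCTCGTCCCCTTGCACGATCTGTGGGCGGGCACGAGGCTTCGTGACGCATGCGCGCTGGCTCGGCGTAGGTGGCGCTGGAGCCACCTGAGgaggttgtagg

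The promoter was rich in G and C (65.3%, and 65.2% within the peak; the median over all 32851 promoters of the table was 52.7% and over the 38 promoters of members 64.2%). It held 30 CpG dinucleotides. Searched on both strands, it held no ACTTCCG, the core of ETS factor sites. It held no TATA box either, and no exact match to the consensus sites of NRF1 or YY1. It did hold TGACGTCA, the palindromic cyclic AMP response element, at bases 186 to 193. The deposited summit is base 187, and the same site lies in the BC049762 promoters that the peak overlapped. This motif was searched for after the sequence had been seen. It occurs in 1.79% of all promoters in the table and in those of 2 member genes, Clk4 and Tra2a. ACTTCCG was found at 6 of the 29 member genes (20.7%; Acin1, Prpf4b, Sf3a1, Srsf11, Srsf4 and Srsf5), against 6.42% of all promoters. The NRF1 consensus was found at 3 (Snrnp70, Srrm1 and Srsf11, against 0.971%), that of YY1 at 1 (Sf3a1, against 0.852%) and the TATA box, TATAAA, at 3 (Rbm25, Srsf2 and Srsf3, against 13.6%). These shares differ in unit, genes for the members and promoters for the whole table. Some member genes have several promoters in the table, which raises their chance of a match. The shares were also not matched for G and C content, which was higher in members' promoters (median 64.2% against 52.7%). A match of letters is a description and not a bound site.

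Clk3 (gene ID 102414, chromosome 9, 57750621 to 57766235, minus strand) had a peak at the outer edge of its annotated span. This peak (57766227 to 57766476) held 16 tags (interval 9.15 to 26) at a fold of 166. Its summit was 101 bp upstream of the outermost annotated position and 1.22 kb upstream of the start in the promoter table. The local input there was higher than at most members: the implied input, which is the scaled input level in units of the genome mean, was 2.16, against a median of 1.35 over the 37 member peaks.

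Clk2 (gene ID 12748, chromosome 3, 89164795 to 89177087, plus strand) had its peak 660 bp upstream of the start. It ran from 89164076 to 89164279 with 11 tags (interval 5.49 to 19.7), a fold of 194 and an implied input of 1.85. Gm45927, a longer annotated protein-coding gene, begins at the same base as Clk2, so the peak belongs to both. Clk1 (gene ID 12747, chromosome 1, 58411988 to 58424088) had a peak of 12 tags (interval 6.2 to 21) and fold 238 outside its body. It lay at 58408794 to 58409002, 3.08 kb below the lower-coordinate end of Clk1 and 1557 bp from Bzw1, and the tables used here give no strand for Clk1. The strongest peak of each of the 4 Clk genes had a height of 6 tags at its summit, with folds of 166 to 266.

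Prpf4b, the PRP4 kinase that phosphorylates spliceosome components, had a single peak of 3 tags (fold 139) in the middle of its body, 14.4 kb from the start. It was the kinase of this list whose one peak lay well inside the body.

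**Figure D2:**
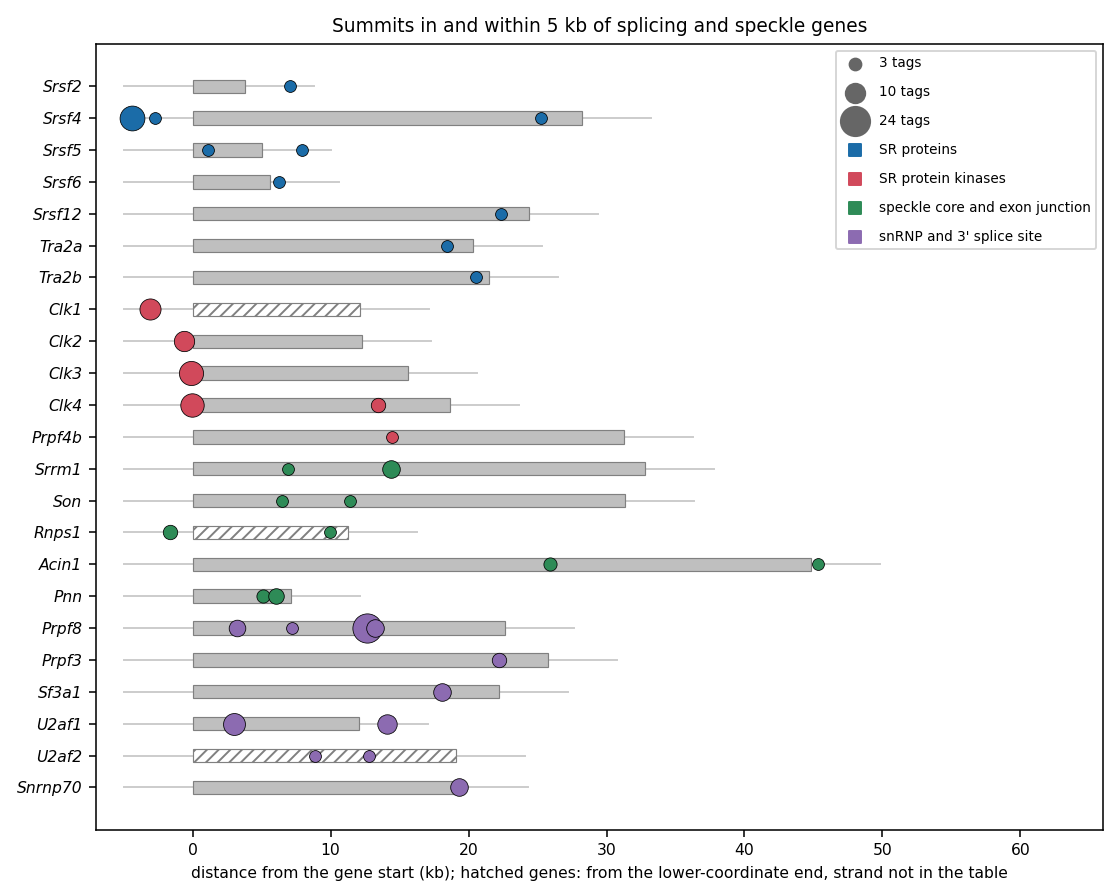
Summits (circles, area by tags) in the 23 members that had one, against distance from the gene start in kb; bars are gene bodies to scale, thin lines the 5 kb on each side, and hatched bars (Clk1, Rnps1, U2af2) are drawn from the lower-coordinate end because no strand was available. The large circles of Clk2, Clk3 and Clk4 sit at or just before the start, and those of Prpf8 inside the body.

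A summit within 1 kb of either gene end was found at 7 members (21.9%), against 13.4% of all protein-coding genes and 14.7% of genes of like length. At the start these were Clk2, Clk3 and Clk4, 3 of the 29 members with a known strand (10.3%, against 7.33% of the 17274 protein-coding genes with a strand and 7.94% of those of like length). All 3 were peaks of at least 10 tags, a combination that 1.7% of genes with a strand had and 1.92% of those of like length. Measured from the starts in the promoter table, Clk3 drops out and 2 members (6.9%) had a summit within 1 kb of a start, against 8.34%. At the other end were Srsf6, Tra2b, Snrnp70 and Acin1, 4 of 29, against 7.23% of genes with a strand and 7.72% of those of like length.

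Of the 37 summits, 24 lay in the body of the member, 5 upstream and 6 downstream, and 2 lay outside a member whose strand is not in the table. At 6 of the 37, another annotated gene covered the summit, which leaves the assignment to the member uncertain. These were the peaks at Srsf2 (in Mettl23), Srsf5 (in Slc10a1), Clk4 (in BC049762), Son (in Gm36712), Rnps1 (in D330041H03Rik) and Acin1 (in Cdh24). Of these, only the Son summit was also in the body of the member, and the others lay in the other gene and outside the member. At the edge of the window, the strongest Srsf4 peak was inside at 4.38 kb from the gene, and a further one of 6 tags was outside at 5.11 kb. Srsf10 and Srsf11, counted as without a summit, had their nearest peaks at 7.04 kb (13 tags) and 8.79 kb (6 tags).

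The spliceosome proteins held the strongest peak of all members. Of the 7 genes of the snRNPs and of 3′ splice site recognition, 6 had a summit (85.7%, against 64.5% of genes of like length), with 11 summits in all where genes of their length would hold 9.55. Prpf8, Sf3a1, Snrnp70, U2af1, U2af2 and Prpf3 had one, and Sf3b1 had none.

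Prpf8 encodes the U5 protein at the catalytic centre of the spliceosome (gene ID 192159, chromosome 11, 75486777 to 75509447, plus strand). It held 4 summits, the most of any member, and 42 tags. The flanks of 250 kb on each side predicted 0.719 summits. In a two-sided exact binomial test of window against flanks, run on all 21631 protein-coding genes, p was 0.0112 and the Benjamini-Hochberg adjusted p over all genes 0.92, so the count did not pass. The test takes summits as independent. The Prpf8 summits at 75499452 and 75500024 lay in neighbouring peaks, which may make the unadjusted p too small. Of the 500 genes nearest in length (21.8 to 23.6 kb), 92% had fewer summits and 95.4% fewer tags, and their median was 1 summit and 4 tags.

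The 4 Prpf8 peaks all lay in the gene body. The largest, at 75499346 to 75499652, held 24 tags (interval 15.4 to 35.7) with a fold of 403, rank 3758 of 77823, and was both the member peak of most tags and the one of highest fold. Its summit was 12.7 kb from the start, at 55.9% of the gene length. A peak of 8 tags and fold 222 lay beside it (75499921 to 75500103, at 58.4% of the length). Nearer the start were peaks of 7 tags (75489952 to 75490128, fold 258, at 3.22 kb) and of 3 tags (75493923 to 75494055, fold 82.1, at 7.24 kb). Implied input at these peaks was between 1.16 and 1.46. No other gene overlapped any of the 4 summits.

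U2af1, the small subunit of the factor that reads the 3′ splice site AG (gene ID 108121, chromosome 17, 31647081 to 31659148, minus strand), held 2 peaks of at least 10 tags. The one of more tags (13, interval 6.92 to 22.2) lay in the body 3.01 kb from the start, at 31655975 to 31656254, with a fold of 113 and an implied input of 2.12. The other (10 tags, interval 4.8 to 18.4) lay 2.02 kb past the far end, at 31645021 to 31645203, with a fold of 203, 255 bp from the pseudogene Rps2-ps8. Together they gave 23 tags, more than 91.8% of genes of like length. The order by tags and the order by fold thus differ at this gene, and the intervals of the tag counts overlap.

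U2af2, the large subunit, which binds the polypyrimidine tract, had 2 body peaks of 3 tags each (folds 59.9 and 111), 6 tags in its window against the 23 of U2af1. Snrnp70, the U1 protein that contacts SR proteins (gene ID 20637, chromosome 7, 45376454 to 45395742, minus strand), had a peak of 8 tags and fold 177 on its far end, with the summit 31 bp past it (45376371 to 45376530). Sf3a1, a subunit of the U2 snRNP, had 8 tags at fold 213, 18.1 kb from the start. Prpf3, a U4/U6 protein, had 5 tags at fold 104, 22.2 kb from the start. Sf3b1, the U2 subunit that holds the branch site, had no summit in 42.3 kb of body, where its flanks predicted 1.67 (exact binomial p = 0.392).

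SR protein genes held summits at the share of genes of their length and mostly weak ones. Of 13 genes, 7 had a summit (53.8%, against 54.6%). The 13 windows held 44 tags in all, where genes of like length would hold 115. Their median window did not differ, with 3 tags against 3 for the mean of the like-length medians. Among the 11 genes named Srsf the count was 5 (45.5%, against 52.6%). A peak of at least 10 tags was present at 1 of the 13 (7.69%), against 17.1% of genes of like length.

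That gene was Srsf4, which encodes the SR protein also known as SRp75 (gene ID 57317, chromosome 4, 131873530 to 131901725, plus strand). Its main peak (131869028 to 131869254) held 17 tags (interval 9.9 to 27.2) at a fold of 266 and lay 4.38 kb upstream of the start, 1365 bp from the neighbour Mecr. It had 2 further peaks of 3 tags, one 2.76 kb upstream (131870696 to 131870804) and one at 89.6% of the body (131898719 to 131898829). The 3 summits compare with 1.99 predicted by the flanks (exact binomial p = 0.458), and 78.6% of genes of like length had fewer. Having 3 or more summits was common in the genome, at 24% of protein-coding genes, and 2 members, Srsf4 and Prpf8, did. The 24% is not matched on length and includes genes longer than any member, so it is no measure of a lack.

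The other SR genes with a summit had peaks of 3 tags and no more. Srsf5 had one 1.08 kb into its body and one 2.9 kb past its end. Srsf2, whose protein is also known as SC35, had one 3.26 kb past its end, inside Mettl23. Srsf6 had one 618 bp past its end (162937647 to 162937778 on chromosome 2, fold 58.5). Tra2a and Tra2b, the activators named after the fly sex determination gene transformer 2, and Srsf12 had one each in the last stretch of the body, at 90.6%, 95.8% and 91.9% of the gene length. The Tra2b peak (22245421 to 22245555 on chromosome 16) was 907 bp from the far end and had the lowest fold of all member peaks, 49.9, at the highest implied input, 2.40.

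No summit was found at Srsf1, whose protein is also known as ASF, nor at Srsf3, Srsf7, Srsf9, Srsf10 and Srsf11. Their flanks predicted from 0.242 (Srsf1) to 1.3 (Srsf10) summits, and the exact binomial p of the empty windows was 0.635 to 1. Several of these genes are short. Of the genes nearest in length to each, from 46.8% (Srsf9) to 67% (Srsf11) had a summit.

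The speckle scaffold and exon junction proteins held peaks below 10 tags throughout. Of the 7 genes 5 had a summit (71.4%, against 69.6% of genes of like length). None had a peak of at least 10 tags, against 25.6%. Of the 2 scaffold genes, Son held 2 peaks of 3 tags in its body, at 6.45 and 11.4 kb from the start, where 1.74 were predicted, and Srrm2 held none, where 1.77 were predicted (exact binomial p = 0.402). Srrm1, a coactivator bound to the exon junction complex, had peaks of 8 and 3 tags in its body, and its flanks predicted 3.25, more than for any other member.

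Rnps1, a peripheral protein of the exon junction complex (gene ID 19826, chromosome 17, 24414646 to 24425898), had 2 peaks. The stronger by fold (239, with 5 tags and an implied input of 1.00) lay at 24412995 to 24413104, 1.61 kb below its lower-coordinate end and inside the lncRNA D330041H03Rik. The other had 3 tags in the body. Acin1, a partner of Rnps1, had 4 tags at 57.9% of its body and 3 tags 535 bp past its end (54641578 to 54641676 on chromosome 14), inside Cdh24. Pnn, another partner, had 6 and 4 tags in a body of 7.1 kb, where 0.581 summits were predicted (exact binomial p = 0.129). Rbm25, a regulator of splice site choice, is the longest member (50.9 kb) and had no summit, where 3.05 were predicted (exact binomial p = 0.104).

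**Figure D3:**
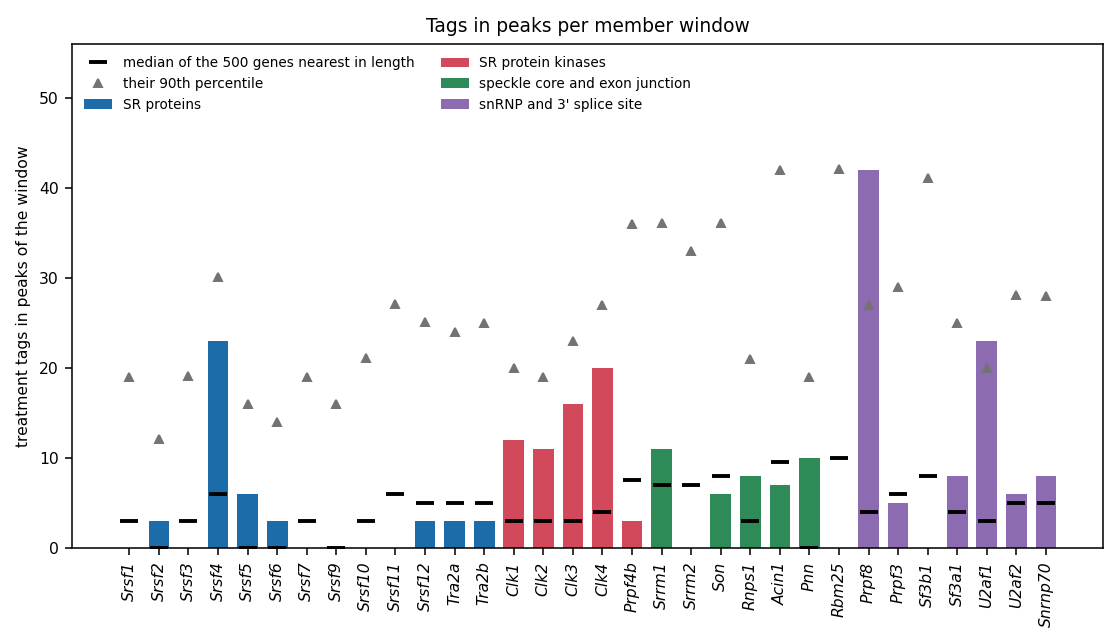
Treatment tags in peaks of each member's window (bars, by role), with the median (black dash) and 90th percentile (triangle) of the 500 protein-coding genes nearest in length. Prpf8 (42 tags) and U2af1 (23) stand above their 90th percentile; Srsf4 (23) and the Clk genes (11 to 20) stand above the median and below it.

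Set against the regional density, the members as a whole were level. Their flanks predicted 38.4 summits and 37 were found, with 14 of 32 members above their prediction. Over all protein-coding genes, 8 (0.037%) passed the flank test with more summits and 3 (0.0139%) with fewer, and 0 of the 32 members were among them. At an unadjusted p under 0.05, 1 member (Prpf8) had more summits, beside 3.67% of all genes, and 0 had fewer, beside 0.569%. A call of fewer summits was hardly within reach of the members. The highest prediction was 3.25 (Srrm1), and the empty window of Rbm25, with 3.05 predicted, gave an exact binomial p of 0.104. Without Prpf8 the other 31 members held 33 summits, where 37.7 were predicted. Prpf8 was the member farthest above its prediction, so leaving it out lowers the count against the prediction in itself. The p-values describe this list of peaks and not biological replicates.

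**Figure D4:**
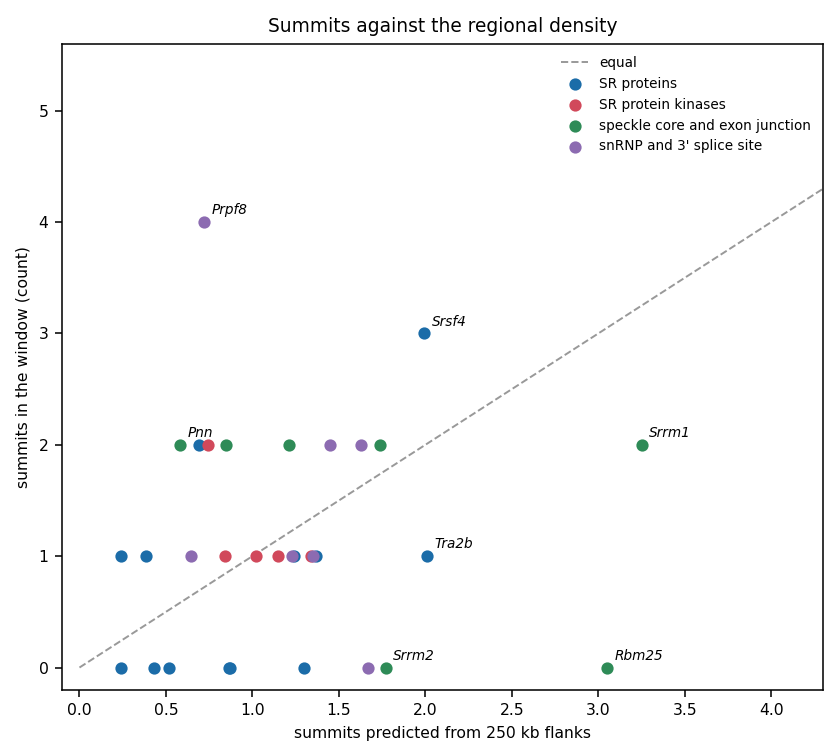
Summits in each member's window (vertical axis, count) against the number predicted from the flanks of 250 kb (horizontal axis), coloured by role; the dashed line marks equality. Prpf8 stands farthest above the line (4 against 0.719) and Rbm25 farthest below it (0 against 3.05).

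The median fold of the member peaks was 143 (range 49.9 to 403), beside 133 for the whole list, at a median height of 3 tags in both. A height of 3 at the genome mean of input gives a fold of 179.5, so few tags are enough for folds of this size. Implied input at member peaks ran from 1.00 to 2.40, while the 95th percentile of the list was 3.56, above every member peak. Among peaks of equal tags, Rnps1 (fold 239 with 5 tags) was close to the 95th percentile of the list (239), and Clk3 (166 with 16 tags) and U2af1 (113 with 13) were below medians of 272 and 240.

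**Figure D5:**
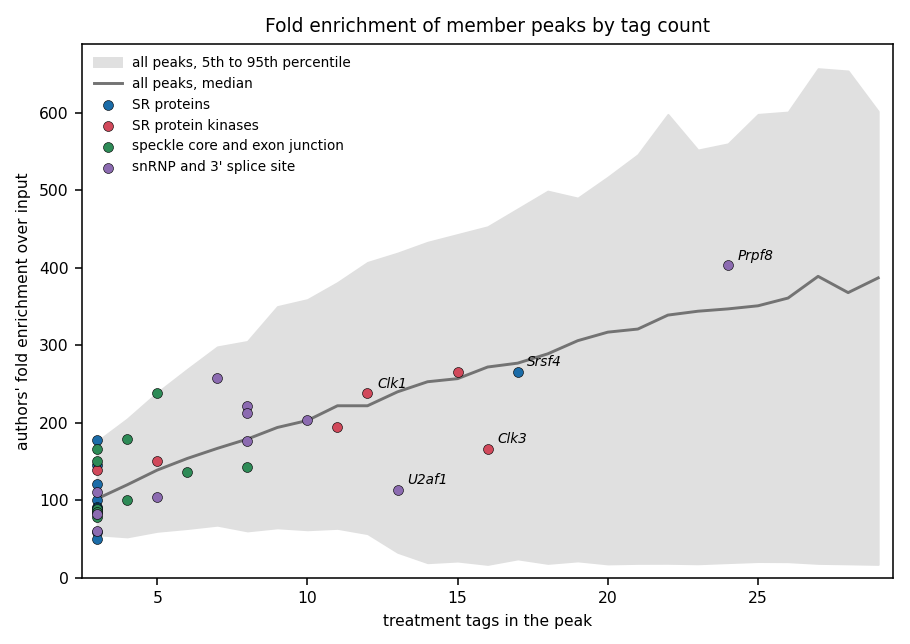
Authors' fold enrichment (vertical axis) of the 37 member peaks against treatment tags in the peak (horizontal axis), coloured by role, over the median (line) and 5th to 95th percentile (band) of all peaks with the same tags. The Prpf8 peak of 24 tags has the highest fold (403); Clk3 and the U2af1 body peak lie under the line.

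Over 192 further genes of the splicing machinery in 9 lists, 120 (62.5%) had a summit, against 64.4% of genes of like length, and 45 (23.4%) had a peak of at least 10 tags, against 26.2%. Their windows held 423 summits in all, against 388 for genes of like length. The median window held 3 tags, against 8.93 for the mean of the like-length medians. Very long genes, such as Rbfox1 and Celf2 (857 kb), can raise a mean and not a median, so these measures are unlike. The median gene length was 18.6 kb, beside 19.2 kb for the members. Each of the 4 values on summits, peaks of at least 10 tags and tags lay on the other side of its like-length value from that of the members. The value for median tags carries the limit just given. For the members they were 71.9% against 61.3%, 21.9% against 20.7%, 37 summits against 40.3, and a median of 5.5 tags against 4.34. Other measures lay on the same side in both sets. Tags summed to 3199 against 3384, and to 240 against 371 for the members. The flanks predicted 457 summits, and 38.4 for the members. The list of hnRNPs and other regulators held 224 of the 423 summits, against 137, and Rbfox1 (1528 kb) alone held 57. No test was made of the difference between the sets. None of the 192 genes passed the flank test after adjustment. At an unadjusted p under 0.05, 6 had more summits and 1 fewer.

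The list headed kinases and phosphatases of SR proteins was the nearest in function to the Clk genes. It had a summit at 7 of 9 (77.8%, against 69.5%) and a peak of at least 10 tags at 4 (44.4%, against 31.2%). Of those 7, Prpf4 is a U4/U6 protein, also in the tri-snRNP list, and Pip5k1a is a lipid kinase. Neither fits the heading, and both had peaks of 3 tags at most. Dyrk1a had the highest fold of this list (479, 13 tags), followed by Srpk2, an SR protein kinase of the cytoplasm and nucleus (299, 11 tags, outside the body). Both genes had 0 summits within 1 kb of the start, as most genes do: 7.33% of protein-coding genes with a strand had one. Among other speckle and RS-domain genes, 25 of 31 (80.6%, against 75.4%) had a summit. The highest fold was at Sugp2, whose body peak of 99 tags and fold 1094 exceeded every member peak, and the next at the neural exon regulator Srrm4 (fold 544, 48 tags).

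Among snRNP proteins, the U1 and Sm core list had a summit at 6 of 15 (40%, against 59.7%), led by Snrpn (fold 359, 17 tags) and Snrpa (314, 18 tags). The U2 and branch site list had one at 9 of 18 (50%, against 55.2%), led by Dhx15 (300, 13 tags) and Sf3b2 (299, 14 tags). The tri-snRNP and LSm list had one at 14 of 22 (63.6%, against 55.8%), led by Lsm7, a ring protein of the U6 snRNP with 62 tags at a fold of 679 in a gene of 2.38 kb, and by Lsm8 (454, 19 tags). The minor spliceosome list, which also holds the general lariat debranching enzyme Dbr1, had one at 5 of 10 (50%, against 55.9%). It was led by Zmat5 (364, 18 tags) and Pdcd7 (279, 21 tags).

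The Prp19 complex and catalytic step list had a summit at 15 of 24 (62.5%, against 64.8%), led by Cwc22 (287, 12 tags) and Aqr (239, 6 tags). The exon junction and export list had one at 12 of 23 (52.2%, against 58.3%), led by Casc3 (547, 39 tags) and Thoc6 (493, 28 tags). The hnRNPs and other regulators had one at 29 of 42 (69%, against 70.6%), led by the very long Rbfox1 (712, 57 tags) and by Celf1 (577, 71 tags). The leading gene of 5 of the 9 lists (Dyrk1a, Sugp2, Lsm7, Casc3 and Rbfox1) had a higher fold than Prpf8, the highest member at 403.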

How the data were processed

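The authors sequenced 4 ChIRP libraries (single reads of 76 nt, per the labels' protocols) and deposited 3 lists of the same 77823 peaks. MACS 1.4.4 called them from a merged treatment against an input at a p cutoff of 1e-05, per the file headers, keeping 1 tag per position: 851227 treatment tags and 50030325 input tags, 58.8 times as many. Coordinates are mm10 (GRCm38), as the submitters' processing notes name it. The aligner was not stated. Tags are the deposited whole-number count of treatment tags in a peak, and fold is the authors' ratio of summit height to the highest local input. The height is the deposited signal, a pileup of tags. The deposited score is -10 times log10 of the MACS p, and the deposited false discovery rate is 0 percent at every peak. Fold, score and height are each peak's own values and describe peaks within this list.

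The 3 lists matched at all 77823 peaks. Genes and promoters came from RefSeq (GRCm38.p6). The tables used here give the strand of 17274 of the 21631 protein-coding genes and no exons, so introns, exons and UTRs were not distinguished. Implied input is height over fold, divided by the genome mean background (0.0167 tags per 53 bp, effective genome of 2.7 Gb). Genes of like length were the 500 nearest in log length. The two-sided exact binomial test compared summits in each window with those in flanks of 250 kb, with Benjamini-Hochberg adjustment over all genes (threshold 0.05). It was tested on simulated data, in which the genes given added summits were all longer than any member. Members described in full had a peak of at least 10 tags, at least 3 summits, a summit within 1 kb of a gene end, or were among the 4 of highest fold. Other lists are given with their 2 highest folds among peaks of at least 5 tags. The members and lists were chosen with earlier results of these data known. Python 3.11.15, numpy 2.4.6, pandas 2.3.3, scipy 1.17.1 and matplotlib 3.10.9 were used.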

Additional observations from a re-analysis of the deposited data

How the results depend on the processing

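The count of members with a summit was 23 with all peaks. It was 17 with the gene body only, 25 with 10 kb on each side, 16 among peaks at or above the median fold and 20 at an implied input of at most 2. It stayed at 23 when any overlap, or at least 50%, of the peak was required in place of the summit. It moved by more than 1.5 times in 3 settings: to 14 with peaks of at least 4 tags, to 12 with a score of at least 100, and to 7 with peaks of at least 10 tags. The difference from genes of like length was 10.6 percentage points and ran from -3.9 (at least 4 tags) to 11 (not matched on length) over 12 alternatives, positive in 10; the other negative value was -1.7, at a score of at least 100. The median of tags per member window was 5.5, and 3 with the gene body only. The count of members passing the flank test was 0 with flanks of 100, 250 and 1000 kb, among peaks at or above the median fold, and with at least 4 tags. At an unadjusted p under 0.05, Prpf8 had more summits in each of these settings (exact binomial p = 0.0102 to 0.02, adjusted p = 0.72 to 1), and Clk4 with flanks of 100 kb (p = 0.0432, adjusted p = 1). Over all protein-coding genes, 3.67% had more summits at an unadjusted exact binomial p under 0.05 with flanks of 250 kb. That share is not given here for the other settings. No paired analysis was possible because the deposited peaks come from 1 merged treatment and each group has 1 library. Depth is a limit: 18 of the 37 member peaks hold 3 tags, with an exact Poisson interval of 0.619 to 8.77 tags.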
